A study of Mus with 8 samples.

Results

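Connexins are the protein subunits of gap junctions, and 5 of their genes are described here in mouse uterus: Gja1 and Gjc1, the connexin genes of smooth muscle, Gja4 and Gja5, those of blood vessels, and Gjb2, that of epithelium. The genes were taken by symbol from a table of 31269 symbols, and all 5 were found and passed the filter on low counts, as did 17629 genes in all. Whole-tissue RNA of the uterus at pseudopregnancy day 6 was sequenced in 8 libraries, 4 from controls and 4 from uteri with deficiency of PGR, the progesterone receptor, in the myometrium, which is the muscle wall. Both groups share the stage, and the sampled tissue is described in the labels as lying around sites of embryo implantation. The deficiency is labelled without the allele, the promoter that drives its deletion, the strain or the age of the mice, and without stating that each library came from its own animal. Pseudopregnancy follows a sterile mating and holds no embryo, so the site that was sampled is not clear from the labels.

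Gap junctions join the cytoplasm of neighbouring cells, letting ions and small molecules pass. In the myometrium they couple muscle cells electrically so that the wall can contract as a unit. Gja1 (Cx43) is the main connexin of the pregnant myometrium, where its amount is known to be held low under progesterone and to increase before labour, and it is also made by uterine stromal cells. Gjb2 (Cx26) is known in rodents as an epithelial connexin of the uterus that is induced by estrogen and by implantation.

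Total counts per library ran from 70296369 to 72364750. Levels are given in CPM, read counts relative to library size after TMM scaling between libraries, and they are compared only within a gene, because the lengths of the transcripts were not used here and CPM of different genes depends on them. Where 4 values of a group are listed, they stand in the order of the library numbers. Every difference is written as the log2 of the group labelled deficient over the control. Pgr, the targeted gene, measured 131.3, 180.0, 143.8 and 170.9 CPM in the 4 controls and 186.6, 183.9, 177.3 and 159.7 CPM in the 4 labelled libraries, so total Pgr RNA of the tissue was not lower in the labelled group and the group is known by its label alone. Libraries 2 and 3 labelled deficient stood apart from the other 6 on the first principal component of all tested genes, which carried 50.5% of the variance. They lay at 99.8 and 45.4, and the others between -44.3 and -0.42. On the second component, with 19.3% of the variance, libraries 1 and 4 labelled deficient lay at -57.1 and -30.3. All other libraries lay there between 2.4 and 41.5. The tissue held clear signal for muscle, epithelium, stroma and vessels, and of 8 trophoblast markers 3 passed the filter, with Hand1 at 0 counts in all libraries. Differences of the connexins and of several other named genes that rest on libraries 2 and 3 are also given without them, a choice made after seeing the data.

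No connexin passed the test between the groups. In edgeR's quasi-likelihood test with Benjamini-Hochberg adjustment over all genes, 0 of the 5 passed at 0.05, as did 0% of all genes tested. At an unadjusted p under 0.05 stood 1 of the 5, Gjb2, against 24.8% of all genes. For 0 of the 5 did the 4 libraries labelled deficient lie wholly beyond the 4 controls, against 16.3% of all genes. DESeq2 called 1 of the 5, again Gjb2, against 15.2% of the genes to which it gave an adjusted p. The labels do not say that the libraries are separate animals. These p-values set each difference against the variation between libraries, which may not be that between animals. The median difference of the 5 was -0.16, with 2 positive and 3 negative, beside a median of 0.01 over all genes.

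**Figure D1:**
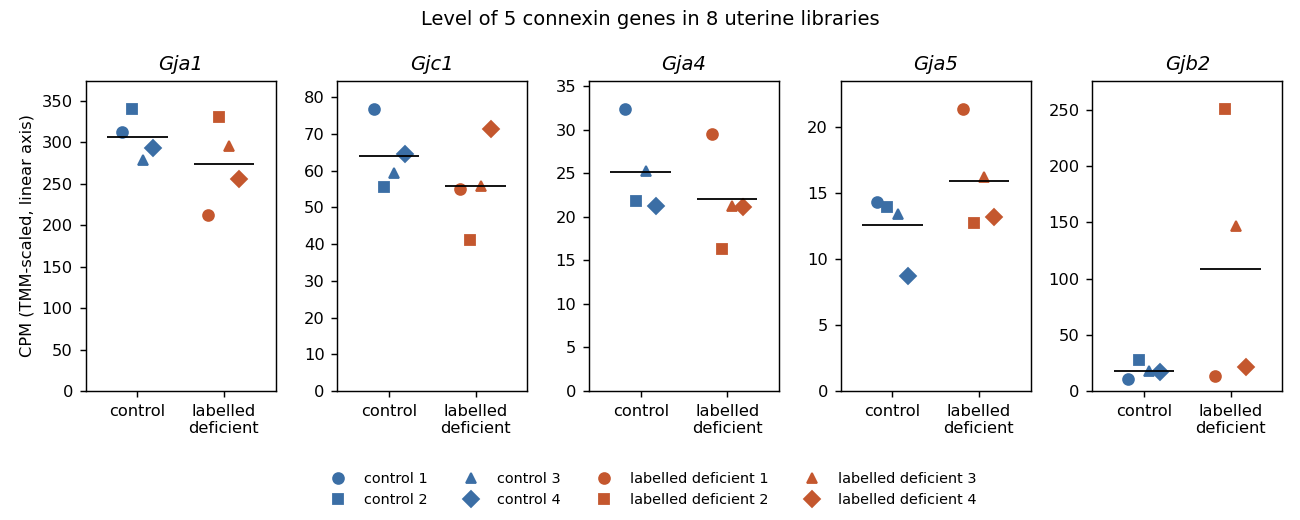
Level of each connexin gene in CPM (linear axis from 0, a separate scale per gene) in 4 control libraries (blue) and 4 libraries labelled deficient (orange); the marker shape gives the library number and the black line is the group mean. The groups overlap for all 5 genes, and Gjb2 stands at 250.7 and 147.1 CPM in libraries 2 and 3 labelled deficient against 10.6 to 27.2 CPM elsewhere.

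Gja1, on chromosome 10 from 56377300 to 56390419 (GRCm38.p6), gave the steadiest values of the 5. Its level was 311.5, 339.6, 278.7 and 292.9 CPM in the 4 controls and 212.2, 329.7, 295.4 and 255.5 CPM in the 4 labelled libraries. Libraries 1 and 4 labelled deficient were below every control, while libraries 2 and 3 lay inside the control range. The mean was 305.7 ± 26.3 CPM in the controls and 273.2 ± 50.8 CPM in the labelled group (SD, n = 4 each). The difference was -0.16 ± 0.14 (SE), a fold of 0.894 with a 95% interval from 0.720 to 1.11 (edgeR adjusted p = 0.475). A two-sided exact permutation test of the 4 against 4 values gave p = 0.314, and 0.0286 is the lowest p that 4 against 4 allows. From the highest to the lowest library Gja1 spanned 1.6-fold, over counts of 15349 to 24067.

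The value for Gja1 changed with the libraries used. Without libraries 2 and 3 labelled deficient, a choice made after seeing the data, its difference was -0.38 ± 0.11 (SE), with an edgeR adjusted p of 0.169 and a DESeq2 adjusted p of 0.0351. Without library 1 labelled deficient it was -0.06 ± 0.11 (edgeR adjusted p = 0.760).

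The summed markers of the cells that make Gja1 overlapped between the groups. All 10 smooth muscle markers had negative differences, with and without libraries 2 and 3, but 0 passed in edgeR and 0 in DESeq2, and their summed level was 5521 to 7961 CPM in the controls and 5482 to 6291 CPM in the labelled group. Gja1 counts per 1000 counts of those markers were 45.2 ± 8.2 in the controls and 46.5 ± 7.4 in the labelled group (SD, n = 4 each), with overlapping ranges of 36.8 to 56.4 and 38.7 to 56.3. Of the 8 stromal fibroblast markers 4 had positive and 4 negative differences. In edgeR 0 passed and in DESeq2 3, Col1a1, Col3a1 and Hand2, against 15.2% of all genes given an adjusted p. The 8 markers summed to 6778 to 9231 CPM in the controls and 9126 to 11623 CPM in the labelled group. Per 1000 of these counts Gja1 measured 46.0, 36.8, 34.5 and 34.2 in the 4 controls and 21.6, 28.4, 30.7 and 28.0 in the 4 labelled libraries, so that the groups did not overlap. This ratio turned on the collagen genes Col1a1, Col1a2 and Col3a1, which made up 63.2% to 77.1% of the stromal sum. With the other 5 stromal markers alone, a choice made after seeing the values, the ratio was 98.6 to 130.2 in the controls and 92.5 to 124.1 in the labelled group, and the groups overlapped. In bulk tissue, fewer cells of a type and less RNA per cell cannot be told apart.

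Markers of 3 other cell types had sums that did not overlap. The 8 macrophage markers summed to 561.8 to 753.7 CPM in the controls and 780.8 to 1091 CPM in the labelled group, and all 8 had positive differences. The 8 lymphocyte markers summed to 45.5 to 76.8 CPM and 87.2 to 177.3 CPM, with 7 positive differences. Over all genes 52.0% of the differences were positive. In the list for the mesothelium, the outer lining of the uterus, the sums went the other way, at 296.6 to 378.0 CPM and 195.4 to 250.2 CPM. Of its 6 markers 5 were tested, all with negative differences. Wt1 made up most of these sums, with group means of 263.3 and 155.7 CPM against 332.3 and 232.1 CPM for all 6 markers. The sums thus mainly follow Wt1, and a change of the mesothelium is not shown by them. Wt1 and Upk1b did not overlap between the groups, while Msln, Upk3b and Lrrn4 did. Of all tested genes 16.3% did not overlap. Krt5, the untested marker, was at 102.0 CPM in library 2 labelled deficient and at most 0.695 CPM elsewhere. In these 3 lists 0 genes passed in edgeR. With all libraries DESeq2 called 6, 3 and 2, against 15.2% of all genes given an adjusted p. Without libraries 2 and 3 labelled deficient it called 1, 2 and 2, where it called 1461 of all 18014 genes tested. The macrophage count without them covers only 7 genes, because Adgre1, present in the counts as Emr1, was not matched there. With all libraries DESeq2 called Adgre1 (adjusted p = 0.00856). Their part in the connexin values was not tested.

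Gjc1 (Cx45), a connexin of smooth muscle including that of vessel walls, lies on chromosome 11 from 102799477 to 102819686. It measured 76.7, 55.5, 59.3 and 64.6 CPM in the 4 controls and 54.9, 41.0, 55.7 and 71.3 CPM in the 4 labelled libraries. Library 2 labelled deficient was the lowest of the 8, library 1 was also just below the lowest control, and library 4 was above 3 of the controls. The difference was -0.20 ± 0.17 (SE), a fold of 0.870 with a 95% interval from 0.665 to 1.14 (edgeR adjusted p = 0.476; two-sided exact permutation p = 0.343). Once libraries 2 and 3 labelled deficient were left out it was -0.02 ± 0.16 (edgeR adjusted p = 0.964).

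Gjc1 was lowest in the library where the pericyte markers were lowest. Of 8 pericyte markers 7 had negative differences, and 4 once libraries 2 and 3 labelled deficient were left out. Of these markers 0 passed in edgeR and 1 in DESeq2: Mcam, at -0.57 ± 0.14 (SE, edgeR adjusted p = 0.0968; DESeq2 adjusted p = 0.00607), with every labelled library below every control. Over all genes DESeq2 called 15.2% of those given an adjusted p, and 16.3% of those tested did not overlap between the groups. The pericyte marker sum was 972.1 to 1096 CPM in the controls against 993.4, 651.6, 776.0 and 999.8 CPM in the 4 labelled libraries. Library 2 labelled deficient had the lowest sum and the lowest Gjc1 level. The other labelled libraries did not all follow. In library 1 Gjc1 was below every control, at 54.9 CPM, with a sum inside the control range. In library 3 the sum was below every control, and Gjc1, at 55.7 CPM, was inside the control range. The part of the pericyte markers in the Gjc1 level was not tested. Gjc1 per 1000 pericyte marker counts was 63.7 ± 9.7 in the controls and 65.3 ± 7.8 in the labelled group (SD, n = 4 each). Per 1000 smooth muscle marker counts it was 9.61 ± 2.95 and 9.53 ± 2.2 (SD, n = 4 each).

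Gja4 (Cx37), a connexin of vessel endothelium and of the oocyte and its follicle, lies on chromosome 4 from 127311420 to 127314039. It measured 32.3, 21.8, 25.2 and 21.3 CPM in the 4 controls and 29.5, 16.3, 21.2 and 21.1 CPM in the 4 labelled libraries. Library 1 of each group was high, library 2 labelled deficient was the lowest, and the other 5 lay between 21.1 and 25.2 CPM. The difference was -0.19 ± 0.20 (SE), a fold of 0.876 with a 95% interval from 0.636 to 1.21 (edgeR adjusted p = 0.569; two-sided exact permutation p = 0.343). Once libraries 2 and 3 labelled deficient were left out it was 0.01 ± 0.21 (edgeR adjusted p = 0.983), so the direction was not kept.

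Gja5 (Cx40), the connexin of arterial endothelium and of the conducting cells of the heart, lies on chromosome 3 from 97032402 to 97053634. It measured 14.4, 13.9, 13.4 and 8.69 CPM in the 4 controls and 21.4, 12.8, 16.2 and 13.2 CPM in the 4 labelled libraries. Control library 4 was the lowest of the 8 and library 1 labelled deficient the highest, while libraries 2 and 4 labelled deficient lay below 3 of the controls. The difference was 0.34 ± 0.22 (SE), a fold of 1.26 with a 95% interval from 0.893 to 1.78 (edgeR adjusted p = 0.359; two-sided exact permutation p = 0.286). Gja5 and Gja4, both vascular, had differences of opposite sign, neither past the threshold. A difference between these 2 effects was not tested. Gja5 had the lowest count of any member in a single library, 616 reads, for which counting error is 4.03% of the value and so smaller than the spread between libraries.

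The 12 endothelial markers had 8 negative and 4 positive differences, and 0 passed in edgeR and 0 in DESeq2. Most signs turned without libraries 2 and 3 labelled deficient, with 11 positive and 1 negative. In edgeR 0 then passed and in DESeq2 2, Eng and Vwf, where DESeq2 called 1461 of all 18014 genes tested. The sum of the 12 endothelial markers was 1703, 1417, 1549 and 1403 CPM in the 4 controls. It was 1854, 1022, 1145 and 1664 CPM in the 4 labelled libraries, lowest in libraries 2 and 3. Relative to this sum Gja4 differed little between the groups, at 16.5 ± 1.8 per 1000 endothelial counts in the controls and 15.8 ± 2.4 in the labelled group (SD, n = 4 each). Gja5 per 1000 endothelial counts measured 8.43, 9.84, 8.65 and 6.19 in the 4 controls and 11.5, 12.5, 14.2 and 7.92 in the 4 labelled libraries. For Gja5, libraries 1, 2 and 3 labelled deficient lay above every control on this scale and library 4 did not. Of 8 arterial markers, a list without the connexins, 4 had positive and 4 negative differences, and their summed level was 360.3 to 487.8 CPM in the controls and 370.2 to 552.4 CPM in the labelled group.

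**Figure D2:**
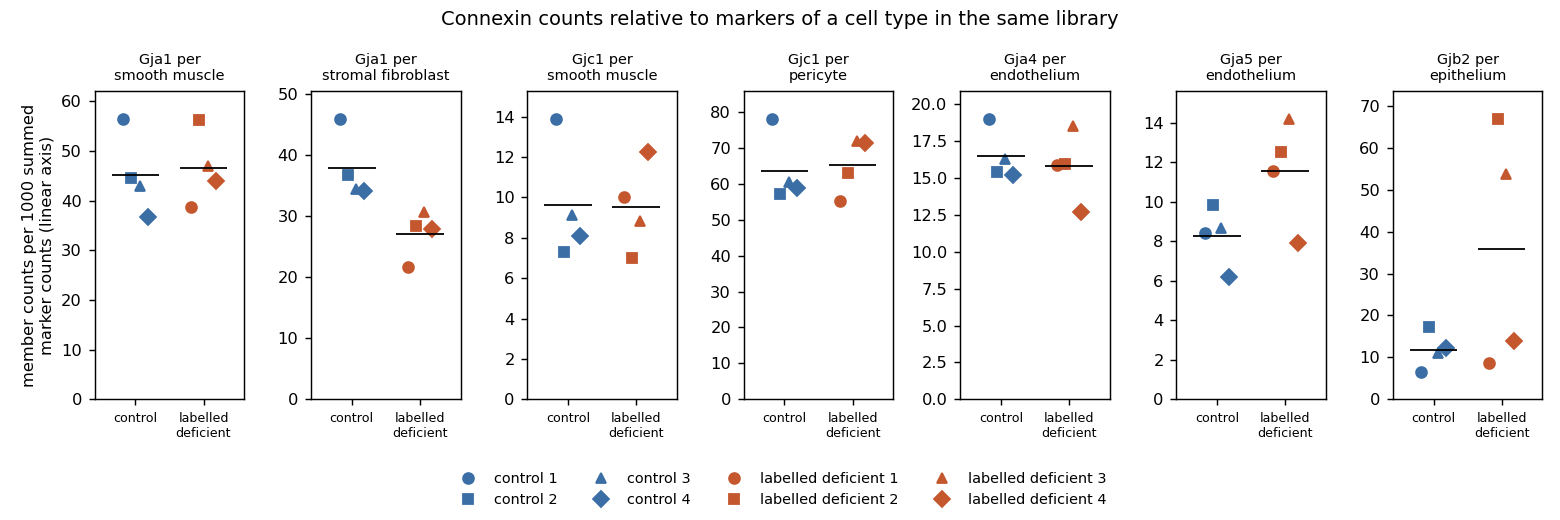
Counts of a connexin per 1000 summed counts of the markers of a cell type in the same library (linear axis from 0, a separate scale per panel), for controls (blue) and libraries labelled deficient (orange); the black line is the group mean. Gja1 per stromal markers is the only panel without overlap (its groups overlap once the 3 collagen genes are left out), and Gjb2 per epithelial markers reaches 66.9 and 53.7 in libraries 2 and 3 labelled deficient.

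Gjb2, on chromosome 14 from 57098602 to 57104702, differed by far more between libraries than the other members. Its level was 10.6, 27.2, 17.8 and 17.2 CPM in the 4 controls and 13.1, 250.7, 147.1 and 21.8 CPM in the 4 labelled libraries. Libraries 2 and 3 labelled deficient were 9.21 and 5.40 times the highest of the other 6, while libraries 1 and 4 labelled deficient lay inside the control range. The high level was thus found in 2 of the 4 libraries that carry the label. The group means were 18.2 ± 6.8 and 108.2 ± 113.0 CPM (SD, n = 4 each), so that the SD of the labelled group exceeded its mean. On the log2 scale the SD within the labelled group was 2.07, larger than that of 99.1% of all genes tested.

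The tools disagreed on Gjb2. The difference was 2.57 ± 0.89 (SE), a fold of 5.93 with a 95% interval from 1.45 to 24.4. It did not pass in edgeR (adjusted p = 0.140, unadjusted p = 0.0194) and passed in DESeq2 (adjusted p = 0.0364). In limma-voom, the third tool, the difference was smaller, at 1.71 (adjusted p = 0.364, unadjusted p = 0.157). A two-sided exact permutation test of the log2 values gave p = 0.257. Without library 2 labelled deficient the difference was 1.73 ± 0.78 (SE), and without library 3 it was 2.37 ± 0.97 (edgeR adjusted p = 0.282 and 0.227). Without both it was -0.06 ± 0.37 (edgeR adjusted p = 0.948; DESeq2 adjusted p = 0.952), so direction and call both ended.

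Of 12 epithelial markers, 8 were also highest in libraries 2 and 3 labelled deficient and 4 were not, where 18.2% of all tested genes showed that order. The 12 had 9 positive and 3 negative differences, of which 0 passed in edgeR and 2, Elf3 and Cldn7, in DESeq2. Over all genes DESeq2 called 15.2% of those given an adjusted p. Without libraries 2 and 3 labelled deficient 7 were positive and 5 negative, and 0 passed in either tool. The 12 summed to 1411 to 1625 CPM in the controls and to 1503, 3748, 2738 and 1560 CPM in the 4 labelled libraries. The sums of libraries 2 and 3 were 2.31 and 1.68 times the highest of the other 6, against 9.21 and 5.40 times for Gjb2. Among single markers Elf3, an epithelial transcription factor, was 8.38 and 5.91 times the highest of the others, Cdh1 (E-cadherin) 2.47 and 1.67 times, and Epcam 1.53 and 1.09 times. The 4 that were not highest there were the keratin Krt18 (0.874 and 0.969 times the highest of the others), the tight junction genes Cldn3 (0.590 and 0.479) and Cldn4 (0.474 and 0.541), and Foxa2, a factor of glands (0.709 and 0.384). The difference of Elf3 was 2.55 ± 0.72 with all libraries and 0.52 ± 0.20 without the 2 (SE; edgeR adjusted p = 0.107 and 0.242), and Cdh1 went from 0.63 to -0.10 and Epcam from 0.35 to -0.10 (edgeR adjusted p = 0.431 and 0.778 without the 2). Gjb2 per 1000 epithelial marker counts measured 6.55, 17.3, 10.99 and 12.2 in the 4 controls and 8.72, 66.9, 53.7 and 13.9 in the 4 labelled libraries. Leaving Elf3 out of the markers, a choice made after seeing the values, gave 79.3 and 63.3 in libraries 2 and 3 and 6.70 to 17.97 in the other 6. The part of the epithelial markers in the Gjb2 result was not tested.

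**Figure D3:**
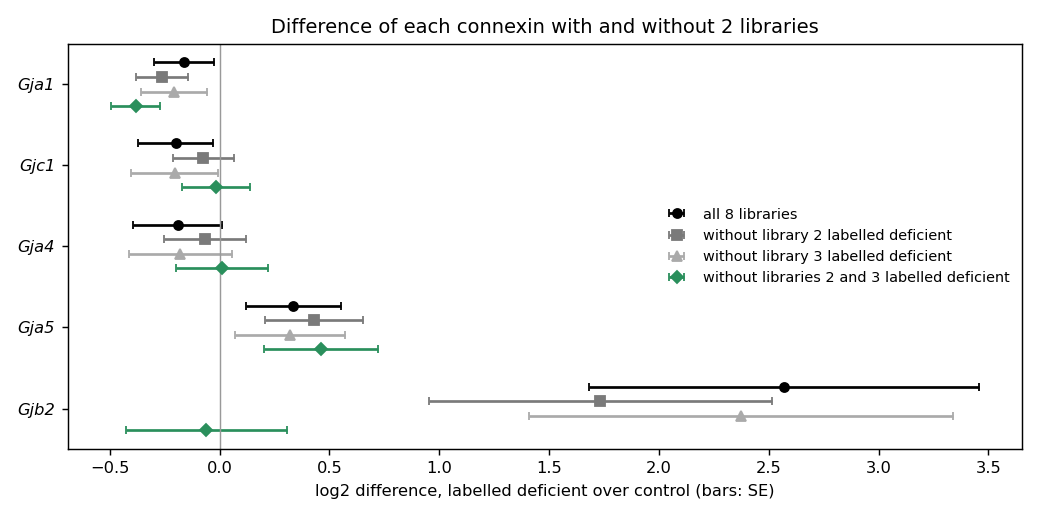
Log2 difference of the group labelled deficient over the controls for each connexin (horizontal axis, bars are the SE), with all 8 libraries and without library 2, library 3 or both of the labelled group. Leaving out both moves Gjb2 from 2.57 to -0.06 and Gja1 from -0.16 to -0.38.

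The pattern of Gjb2 across libraries was shared by the connexin genes next to it, which were named after their values were seen. Gja3 (57034460 to 57058030) and Gjb6 (57123301 to 57133611) lie on either side of Gjb2 on chromosome 14. Gjb6 (Cx30), a connexin of the inner ear and skin, measured 0.951, 3.51, 5.53 and 6.37 CPM in the 4 controls and 4.27, 15.4, 16.4 and 2.97 CPM in the 4 labelled libraries. Gja3 (Cx46), known from the lens, was near the floor elsewhere, at 0.0551 to 0.411 CPM in the other 6, and stood at 1.91 and 3.14 CPM in libraries 2 and 3, with at most 221 reads in any library. For all 3 genes libraries 2 and 3 labelled deficient were the highest of the 8, an order that 18.2% of all tested genes showed. None passed the test, at differences of 1.25 ± 0.71 for Gjb6 and 2.91 ± 1.20 for Gja3 (SE; edgeR adjusted p = 0.296 and 0.185). Without libraries 2 and 3 labelled deficient both turned, to -0.17 ± 0.66 for Gjb6 and -0.83 ± 0.87 for Gja3 (SE; edgeR adjusted p = 0.915 and 0.647).

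Of the 13 tested genes that start within 500 kb of Gjb2, 5 had this order, against 18.2% of all tested genes. Both counts include Gjb2 itself, whose values set the order. The 5 were the 3 connexins, Cryl1 (crystallin lambda) and the transcript 2410022M11Rik. Cryl1 was at 31.0 and 26.0 CPM in libraries 2 and 3 against 14.8 to 19.5 in the others. The transcript 2410022M11Rik was at 5.56 and 4.77 CPM against 2.49 to 4.71. Zmym2 is the nearest tested gene at lower coordinates than Gja3. Its difference was -0.03 (edgeR adjusted p = 0.834), with values of 91.6 to 107.9 CPM in the controls and 91.6 to 104.9 CPM in the labelled group.

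**Figure D4:**
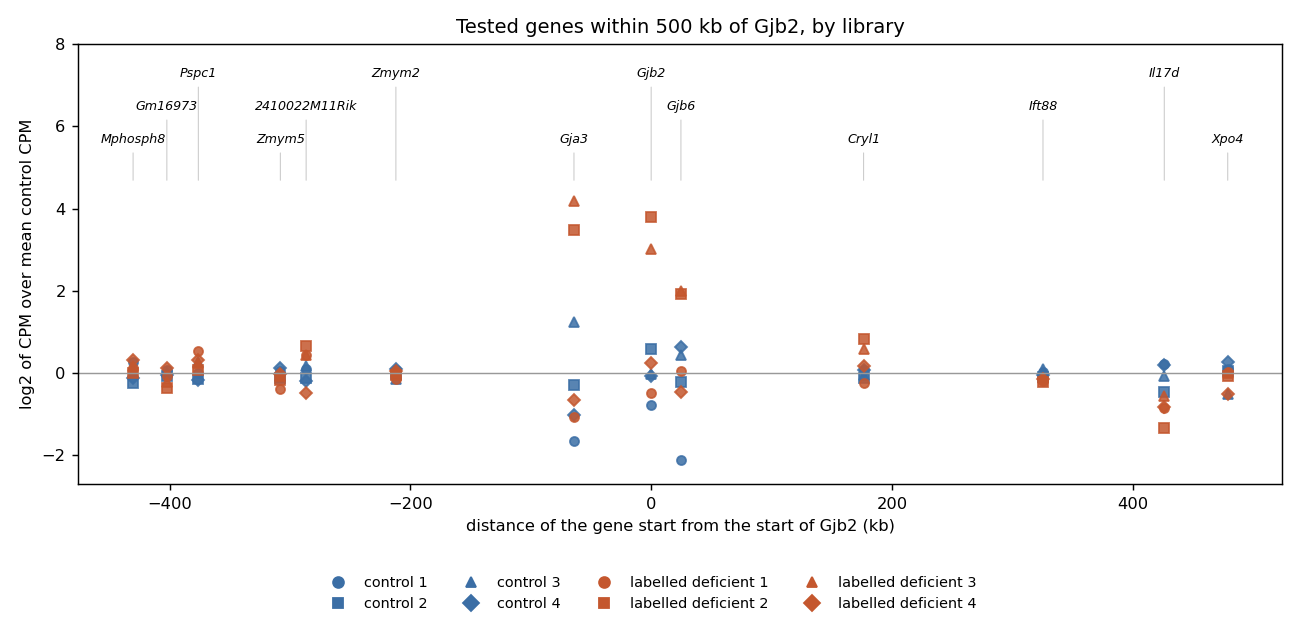
Each tested gene within 500 kb of Gjb2, placed by the distance of its start from the start of Gjb2 (horizontal axis, kb), with log2 of the CPM of each library over the mean control CPM (vertical axis). Gja3, Gjb2 and Gjb6 have libraries 2 and 3 labelled deficient well above all others, and most flanking genes lie close to 0 in all 8 libraries.

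Of 20 connexin genes found, 14 passed the filter, 5 described above and 9 others. Gja6, Gja10, Gjc3, Gjd2, Gjd4 and Gje1 did not pass, with at most 26 reads in any library. Among the other 9, 6 differences were positive and 3 negative, with a median of 0.37, and 0 passed in edgeR and 0 in DESeq2. At an unadjusted p under 0.05 stood 2 of 9, Gja3 among them, where all genes have 24.8%. Without libraries 2 and 3 labelled deficient, 11 of these other connexins passed the filter, with 1 positive and 10 negative differences and again 0 past the threshold in either tool. Gjb1 (Cx32), an epithelial connexin of liver and glands, did not follow Gjb2: it was at 8.42 and 6.07 CPM in libraries 2 and 3 and at 4.68 to 10.3 CPM in the controls. Of the pannexins, which form channels of a related shape, Panx1 was at 0.19 and Panx2 at -0.55 (edgeR adjusted p = 0.383 and 0.338), and Panx3 was not tested.

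**Figure D5:**
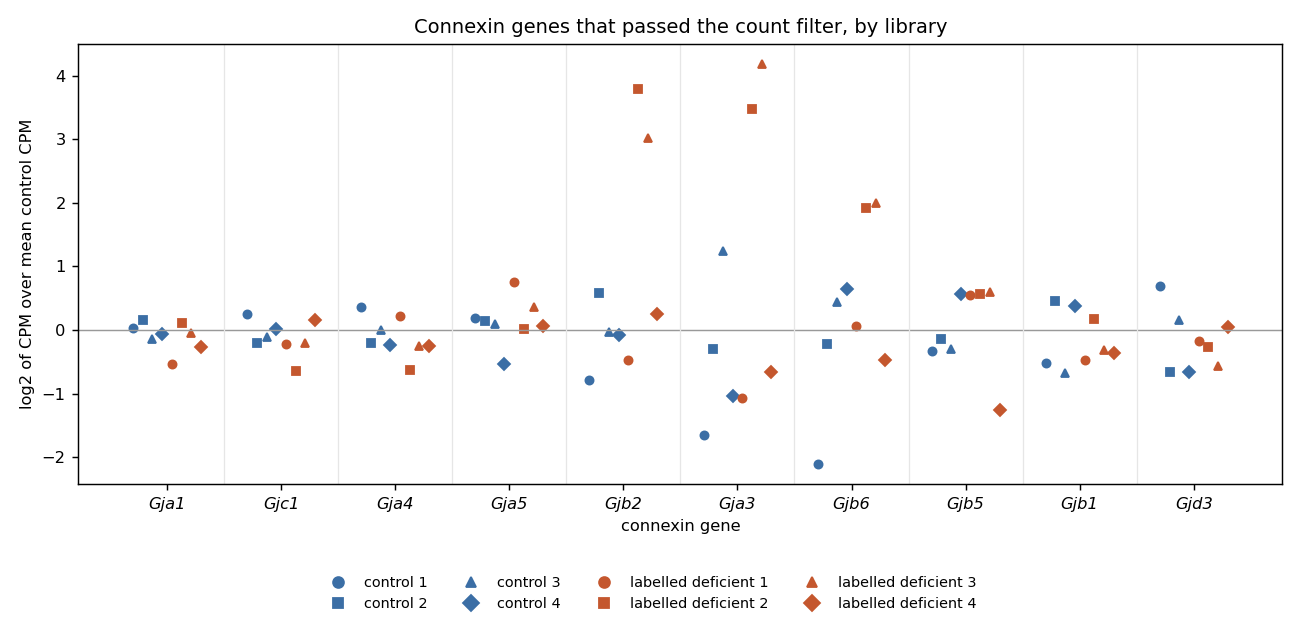
Log2 of the CPM of each library over the mean control CPM (vertical axis) for 10 of the connexin genes tested, with controls in blue and libraries labelled deficient in orange. Gja1, Gjc1, Gja4 and Gja5 stay within 1 log2 unit of the control mean in every library, while Gjb2, Gja3 and Gjb6 are highest in libraries 2 and 3 labelled deficient.

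Proteins that anchor, phosphorylate or degrade connexins were read from a list of 19 genes, all tested, of which 13 had positive and 6 negative differences (median 0.07). In edgeR 0 passed, and 6 had an unadjusted p under 0.05, against 24.8% of all genes. The groups did not overlap for 7 (4 above and 3 below the controls), against 16.3% of all genes, and DESeq2 called 6, against 15.2%. DESeq2 called 4 without libraries 2 and 3 labelled deficient, where it called 1461 of all 18014 genes tested. Prkce, a protein kinase C isoform that phosphorylates Cx43, measured 46.4, 57.5, 41.7 and 44.4 CPM in the 4 controls and 78.4, 82.1, 74.3 and 61.5 CPM in the 4 labelled libraries, with every labelled library above every control. Its difference was 0.64 ± 0.12 (SE), with an edgeR adjusted p of 0.0906 and a DESeq2 adjusted p of 0.000423. Prkca, another protein kinase C gene of the list, was at -0.03 ± 0.15 (SE, edgeR adjusted p = 0.899). Akt1, a further kinase gene of the list, measured 215.3 to 219.9 CPM in the controls and 229.4 to 267.7 CPM in the labelled group. Its difference was 0.19 ± 0.06 (SE), with an edgeR adjusted p of 0.123 and a DESeq2 adjusted p of 0.0194. Cdh2 (N-cadherin), whose adherens junctions accompany gap junctions, measured 18.5, 12.02, 15.3 and 19.5 CPM and then 8.45, 5.41, 10.002 and 8.76 CPM in the same order, with every labelled library below every control and a difference of -1.004 ± 0.22 (SE, edgeR adjusted p = 0.0906). Map1lc3b, of the autophagy machinery that takes up internalised junctions, was at -0.35 ± 0.07 (SE, edgeR adjusted p = 0.0906), also without overlap. Tjp3 (ZO-3), an epithelial scaffold protein, was at 204.7 and 149.3 CPM in libraries 2 and 3 labelled deficient and at 24.1 to 48.0 CPM in the other 6. Its difference was 1.59 ± 0.50 with all libraries and 0.36 ± 0.23 without those 2 (SE; edgeR adjusted p = 0.122 and 0.448; DESeq2 adjusted p = 0.0107 and 0.426). Tjp1 (ZO-1), the scaffold bound by the tail of Cx43, measured 250.2 to 306.4 CPM in the controls and 207.8 to 244.1 CPM in the labelled group, a difference of -0.26 (edgeR adjusted p = 0.130; DESeq2 adjusted p = 0.0492).

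Factors known to act on the Gja1 promoter, the steroid receptors, the AP-1 family and the ZEB repressors among them, made a list of 16 genes, of which 15 were tested. Of these 11 had positive and 4 negative differences (median 0.14), and 0 passed in edgeR. An unadjusted p under 0.05 was found for 3, against 24.8% of all genes, groups without overlap for 1, Jdp2, against 16.3%, and a DESeq2 call for 2, Junb and Fos, against 15.2%. DESeq2 called 0 of them without libraries 2 and 3 labelled deficient, and 1 had an edgeR unadjusted p under 0.05. Over all genes DESeq2 then called 1461 of 18014, and 3325 of 18022 had an edgeR unadjusted p under 0.05. Junb, an AP-1 subunit, measured 40.8 to 58.0 CPM in the controls and 71.2, 80.7, 68.5 and 56.8 CPM in the 4 labelled libraries, a difference of 0.50 ± 0.14 (SE, edgeR adjusted p = 0.108; DESeq2 adjusted p = 0.0188). Fos, its partner, was at 55.5 and 38.5 CPM in libraries 2 and 3 labelled deficient and at 7.88 to 15.8 CPM in the other 6. Its difference was 1.46 ± 0.48 with all libraries and 0.38 ± 0.29 without those 2 (SE; edgeR adjusted p = 0.130 and 0.522). Jdp2, an AP-1 repressor, measured 15.6 to 21.2 CPM in the controls and 25.9, 57.7, 27.1 and 21.5 CPM in the 4 labelled libraries. The groups were thus only just apart, and library 2 labelled deficient was far the highest. Jdp2 was at 0.80 ± 0.30 and Jund at 0.18 ± 0.08 (SE; edgeR adjusted p = 0.159 and 0.212). A difference of Jdp2 without libraries 2 and 3 is not given. Zeb1 and Zeb2, repressors of Gja1 in myometrium, were at 0.13 and 0.01, and Esr1, the estrogen receptor, was at 0.20, none with an edgeR adjusted p under 0.386. In the libraries where Fos was high, Gja1 was inside the control range, at 329.7 and 295.4 CPM. In libraries 1 and 4 labelled deficient Gja1 was lower, at 212.2 and 255.5 CPM. A link between Fos and Gja1 was not tested.

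Among 14397 other genes with a mean of at least 1 CPM, the 3 whose log2 levels followed each connexin most closely over the 8 libraries were listed. Because they were the highest of so many, their correlations are a description, given without p. For Gjb2 they were Pcyt1a, an enzyme of phosphatidylcholine synthesis (Pearson r = 0.994, Spearman rho = 0.976), Rapgefl1 (0.991 and 0.929) and Acp5 (0.990 and 0.952), all highest in libraries 2 and 3 labelled deficient. Without those 2 libraries r was 0.976, 0.869 and 0.879. For Gja4 they were Sec61a2 (r = 0.957, rho = 1), Lenep (0.949 and 0.857) and Cables2 (0.946 and 0.929), and for Gjc1 Phkg1 (0.976 and 0.952), Mblac2 (0.974 and 0.905) and Ubr1 (0.974 and 0.857). For Gja1 they were Cyp2s1 (0.943 and 0.738), Trp53i11 (0.936 and 0.810) and Ctla2b (0.934 and 0.952). For Gja5 they were Apip (0.978 and 0.762), Nt5c (0.967 and 0.810) and Zfp41 (0.963 and 0.714), and without control library 4 and library 1 labelled deficient, the farthest from the Gja5 median, r was 0.687, 0.740 and 0.495. No gene was in the list of more than 1 connexin.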

How the data were processed

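Per the labels, total RNA of mouse uterus was extracted with TRIzol. HISAT2 2.2.1 and HTSeq 0.10.0 with build mm10 are named in the submitters' processing notes, and the sources used here do not give annotation, strand setting or read filters. As deposited by the authors, the values were raw whole-number counts per gene symbol, whose columns were matched to sample titles. Coordinates came from a RefSeq table of GRCm38.p6 (mm10), matching 22353 symbols. It lists lncRNAs that overlap Gja5 and Gjb2 in part, and without a known strand setting their reads could not be told apart. No sequences or transcript lengths were used, so the planned order of levels per length was not made.

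Counts were filtered with filterByExpr, scaled with TMM and tested with edgeR 4.0.16 (R 4.3.3; glmQLFit, glmQLFTest, group as the only term); SE came from the size and F of each difference, and p-values were adjusted over all 17629 genes at 0.05. CPM for correlations used a prior count of 2. Members and lists were chosen with earlier results of these data known. Named genes were the members, up to 4 of each pathway list by smallest p, and the 3 genes most correlated with each member, leaving out unnamed models; others were named after their values were seen. Values of some connexin genes are not reported here; the family counts include them. Alternatives were other scalings and filters, DESeq2 1.42.0, limma-voom (limma 3.58.1), robust dispersion, the replicate number as a term, and leaving out libraries; omitting libraries 2 and 3 labelled deficient was added after seeing the data. The code was tested on simulated data.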

Additional observations from a re-analysis of the deposited data

Results flagged for a closer look

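Gja5 in control library 4, at 8.69 CPM, lay far below the other 3 controls (13.4 to 14.4 CPM): its gap to the nearest was 0.831 of the group's range, just over the 95% limit of Dixon's test for 4 values. About 1 group in 20 passes that limit by chance, and 10 groups (5 genes in each of 2 groups) were examined. Without this library the Gja5 difference was 0.19 ± 0.20 (SE; edgeR adjusted p = 0.623), against 0.34 ± 0.22 with it. The cause was not tested.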

How the results depend on the processing

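For the 5 connexins, 89 of 95 alternative values kept direction and side of the threshold. DESeq2 called Gjb2 (2.57). Without libraries 2 and 3 labelled deficient, Gja4 turned to 0.01 in both edgeR (0.012) and DESeq2 (0.0091) and Gjb2 to -0.06 in both (-0.060 and -0.062), and DESeq2 called Gja1 (-0.38). The cause was not tested. Leaving out single libraries gave -0.26 to -0.06 for Gja1, -0.36 to -0.05 for Gja4, 0.16 to 0.43 for Gja5, 1.73 to 2.94 for Gjb2 and -0.34 to -0.07 for Gjc1. Of the other genes fitted without these libraries, the direction turned, in edgeR and DESeq2, for Gja3 (-0.83 and -0.84), Gjb6 (-0.17 and -0.18), Cdh1 and Epcam (-0.10 and -0.11 each), Krt7 (-0.45 in both), Krt19 (-0.28 in both), Cldn3 (0.28 in both) and Cldn4 (0.027 and 0.025). Over all genes edgeR called 0 as reported (4372 at an unadjusted p under 0.05), DESeq2 2522 (1461 without libraries 2 and 3 labelled deficient), limma-voom 2 and the replicate block 23. Leaving out single libraries gave 0 to 2 edgeR calls, 2 of them without control library 2, and 2896 to 5471 genes at an unadjusted p under 0.05, the lowest without control library 4. Same-numbered libraries correlated at -0.08 to 0.24 in their deviations and 2 of 4 fitted their own number best, so the numbers were not taken as pairs; with the block Gjb2 was 1.74 (edgeR adjusted p = 0.198). Other scalings moved the median of all genes by at most 0.04. Depth did not limit the members, whose counting error was at most 4.03%.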
